A study of Oryza sativa Japonica Group with 8 samples.

Results

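Messenger RNA of 4 rice genes of the tapetum was followed in young panicles of a line with reduced OsDCL3b. They comprise 3 regulators, the helix-loop-helix gene LOC_Os01g18870, the PHD-finger gene LOC_Os09g27620 and the MYB gene LOC_Os04g39470, and 1 protease gene, LOC_Os04g37570, described in the files as an aspartic proteinase nepenthesin precursor. They were chosen by locus ID, and all 4 were among the 1174 genes that the authors' deposited tables list as changed. Panicles of field-grown Oryza sativa subsp. japonica were collected before heading from wild type plants and from dcl3b knockdown plants, with 3 mRNA libraries of each genotype and 1 small RNA library of each. OsDCL3b is a Dicer-like enzyme, which cuts double-stranded RNA into small RNAs. How the knockdown was made, the number of lines and the age of the plants are not stated in the labels.

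In the anther wall, the cell layer next to the developing pollen is the tapetum. It nourishes the developing microspores, secretes the precursors of the pollen wall and then dies in a timed, programmed way. In rice, a cascade of helix-loop-helix, MYB and PHD-finger proteins switches on the tapetal genes for lipids of the pollen wall and governs when the layer degenerates, and aspartic proteinases act late in the cascade, in the death of the cells. The tapetal roles of the 4 loci were taken from general knowledge of rice genes. The files give the protein class alone.

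All 4 genes were lower in the knockdown, and their mean levels there were 25.5% to 49.2% of the wild type mean. The authors' deposited tables listed 45.1% of their 1174 genes as lower. Presence in these tables means that a gene had already been called (a change of at least 1.0 on the log2 scale in either direction, with adjusted p up to 0.05), and the 4 were chosen with that known. The fact that they were called is therefore no result in itself. The values below describe how far each fell and in which libraries. Levels are in FPKM and scale reads by transcript length and library depth; how deeply the mRNA libraries were sequenced is unknown. Since no label ties a library to its own plant or plants, p-values reflect only how these samples spread, and that spread may be technical. In a whole panicle, fewer tapetal cells and less RNA per cell cannot be told apart. The stage of the panicles is given here only as before heading, and whether it matched between the genotypes was not tested. The gene targeted by the knockdown, LOC_Os10g34430, stood at 0.97, 0.98 and 0.88 FPKM in wild type, against 0.39, 0.50 and 0.44 FPKM in the knockdown.

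The helix-loop-helix gene LOC_Os01g18870 encodes a DNA-binding protein of the class that pairs with other helix-loop-helix proteins in the tapetum. Wild type libraries held 9.14, 6.11 and 11.5 FPKM of its transcript, and knockdown libraries held 3.42, 5.98 and 3.79 FPKM, in the order of replicates 1, 2 and 3. The groups did not overlap, but only 0.13 FPKM separated wild type replicate 2 from knockdown replicate 2. The mean went from 8.93 ± 2.72 to 4.40 ± 1.38 FPKM (SD, n = 3 each), or 49.2% of wild type. The change in the authors' deposited table was -1.02 on the log2 scale (adjusted p = 0.00197). In a re-test of all 1174 listed genes with limma on log2(FPKM + 0.5), the difference was -0.94 with a standard error of 0.29, a 95% interval from -1.67 to -0.21 and an adjusted p of 0.0288. That call ended when wild type replicate 1, wild type replicate 3, knockdown replicate 1 or knockdown replicate 3 was left out. The limma adjusted p was then 0.0812, 0.0829, 0.0945 and 0.0914, and the log2 difference was -0.90, -0.74, -0.80 and -0.86.

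The PHD-finger gene LOC_Os09g27620 encodes a protein with a zinc-binding domain that is typical of chromatin and transcription regulators. Its wild type libraries held 10.6, 7.79 and 10.2 FPKM, and its knockdown libraries held 1.41, 4.75 and 2.51 FPKM. Every knockdown library lay below every wild type library, with a gap of 3.04 FPKM, and knockdown replicate 2 was 3.37 times as high as knockdown replicate 1. The mean went from 9.51 ± 1.50 to 2.89 ± 1.70 FPKM (SD, n = 3 each), or 30.4% of wild type. In the authors' deposited table it changed by -1.72 on the log2 scale (adjusted p = 8.14e-06). The limma difference was -1.67, with a standard error of 0.38, a 95% interval from -2.62 to -0.73 and an adjusted p of 0.0124.

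The MYB gene LOC_Os04g39470 encodes a DNA-binding transcription factor. Wild type libraries stood close together at 10.5, 8.93 and 10.5 FPKM, and the knockdown libraries stood at 3.27, 5.84 and 3.08 FPKM. The lowest wild type library was 3.09 FPKM above the highest knockdown library. The mean went from 9.97 ± 0.898 to 4.06 ± 1.54 FPKM (SD, n = 3 each), or 40.8% of wild type, and the SD in wild type was 9.01% of the mean, the smallest share among the 4 genes. The authors' deposited table recorded -1.29 on the log2 scale (adjusted p = 2.74e-06). By limma the difference was -1.24, with a standard error of 0.24, a 95% interval from -1.85 to -0.64 and an adjusted p of 0.00803.

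The aspartic proteinase gene LOC_Os04g37570 encodes a protein-cleaving enzyme of the nepenthesin type. It was the most abundant of the 4 per transcript length, at 39.9, 43.1 and 31.7 FPKM in wild type, against 6.94, 16.3 and 6.03 FPKM in the knockdown. A gap of 15.4 FPKM lay between the groups. The mean went from 38.2 ± 5.92 to 9.74 ± 5.66 FPKM (SD, n = 3 each), or 25.5% of wild type. Its value in the authors' deposited table was -1.97 on the log2 scale (adjusted p = 1.91e-09). By limma it was -2.04, with a standard error of 0.38, a 95% interval from -2.99 to -1.09 and an adjusted p of 0.00717.

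**Figure D1:**
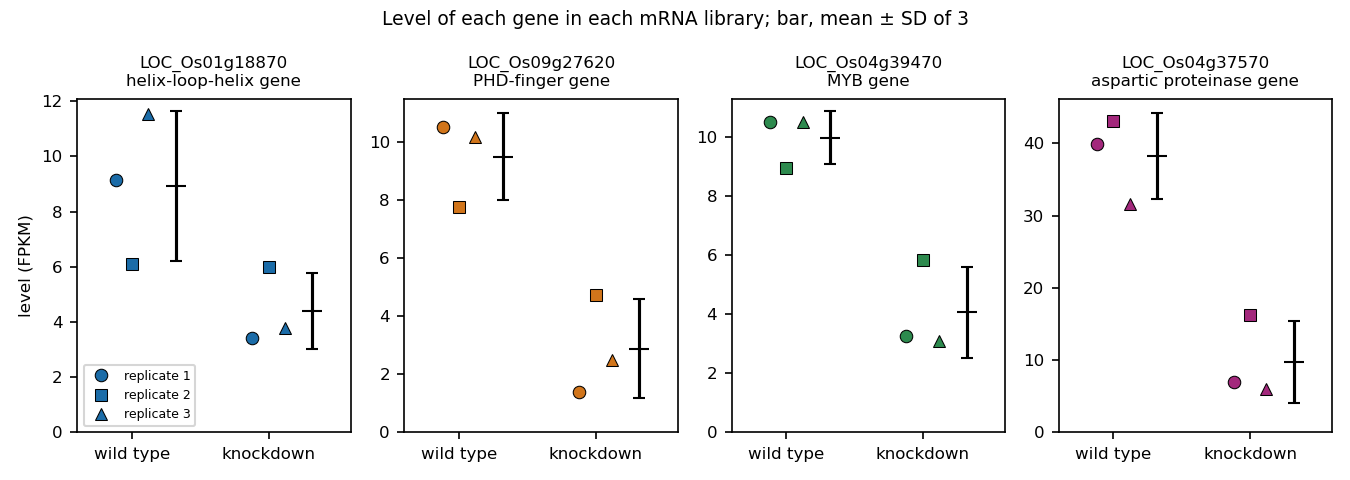
Level in FPKM of the 4 genes in each of the 3 wild type and 3 dcl3b knockdown mRNA libraries, with the mean and SD of each genotype as bars; circles, squares and triangles are replicates 1, 2 and 3. The groups are apart in every panel, by as little as 0.13 FPKM for LOC_Os01g18870 and by 15.4 FPKM for LOC_Os04g37570.

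For each gene alone, a two-sided exact permutation test of 3 libraries against 3 gave p = 0.10, the smallest value this design allows. The limma re-test ran on genes that these same values had selected, so it compares settings and adds no independent support. It called 41.1% of the 1174 listed genes lower and 90.9% of the 530 genes listed as lower. All 4 genes had knockdown levels below every wild type level, as had 89.1% of the genes listed as lower.

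Among the 530 genes listed as lower, the protease gene LOC_Os04g37570 ranked 95 by depth of fall in the authors' deposited table. The PHD-finger gene LOC_Os09g27620 ranked 163, the MYB gene LOC_Os04g39470 ranked 339 and the helix-loop-helix gene LOC_Os01g18870 ranked 518. The last was thus near the shallow end of the list. Taken from the authors' deposited table, the median change was -1.50 (log2) over the 4 genes and -1.44 over all 530. The 4 genes started from higher levels than most: their median level in wild type was 9.74 FPKM, against 1.83 FPKM for the 530. Over the 329 genes listed as lower with a wild type mean of at least 1.0 FPKM, the corresponding median from the authors' deposited table was -1.30.

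The libraries of a genotype differed in how they stood for these genes. Of the knockdown libraries, replicate 2 was the highest for all 4, at 67.0% of the wild type mean for LOC_Os01g18870, 49.9% for LOC_Os09g27620, 58.6% for LOC_Os04g39470 and 42.5% for LOC_Os04g37570. It was also the top knockdown library in 356 of the 530 genes listed as lower (67.2%), so this order was common to most of them. In wild type the regulators and the protease were ordered differently. Wild type replicate 2 was the lowest of its group for the 3 regulators, as in 291 of the 530 genes (54.9%), and the highest for the protease gene, as in 129 of the 530 (24.3%). Without both libraries numbered 2, the limma differences were -1.39 for LOC_Os01g18870, -2.18 for LOC_Os09g27620, -1.58 for LOC_Os04g39470 and -2.37 for LOC_Os04g37570, with adjusted p-values of 0.00520, 0.00582, 0.00196 and 0.00272. That setting was chosen after the data were seen, and it leaves 2 libraries of each genotype. For the 3 regulators it drops the lowest wild type and the highest knockdown library. Their differences therefore had to widen, and these p-values add no support. What sets the libraries numbered 2 apart was not tested.

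**Figure D2:**
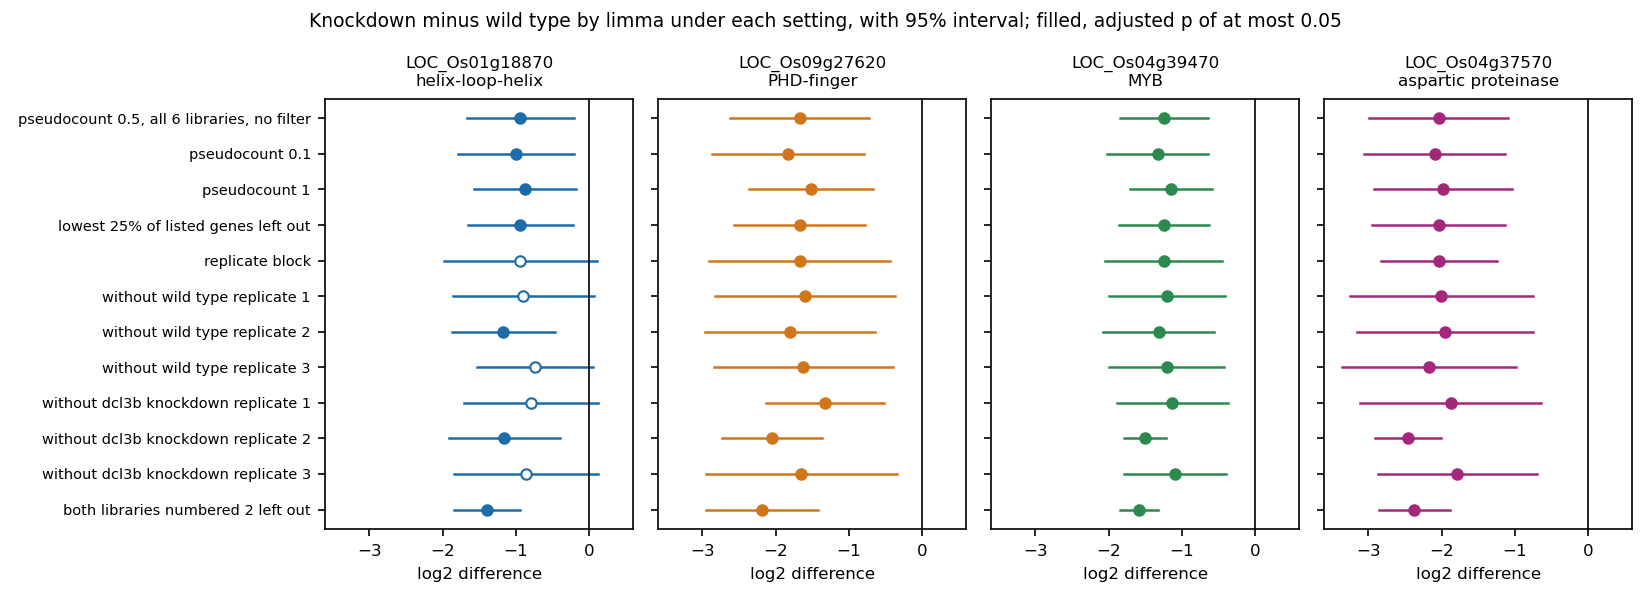
Difference of knockdown minus wild type on the log2(FPKM + 0.5) scale by limma, or with the pseudocount named, with its 95% interval, for each gene under each setting; filled points have an adjusted p of at most 0.05. LOC_Os01g18870 has 5 open points, 4 of them with a library left out and 1 with a replicate block, while the other genes have filled points under every setting shown.

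The size of the fall was then compared between the 4 genes, through the ratio of their levels within each library, which cancels what a library does to both genes alike. The protease gene LOC_Os04g37570 exceeded the helix-loop-helix gene LOC_Os01g18870 by 4.37, 7.06 and 2.74 times in wild type and by 2.03, 2.72 and 1.59 times in the knockdown. These ratios did not overlap, but 2.74 and 2.72 nearly met. Against the MYB gene LOC_Os04g39470, the protease gene stood 3.80, 4.83 and 3.02 times as high in wild type and 2.12, 2.78 and 1.96 times as high in the knockdown, again without overlap. The protease gene thus lost more of its level than either of these regulators in these libraries. Its ratio to the PHD-finger gene LOC_Os09g27620 overlapped between the genotypes, at 3.78, 5.54 and 3.10 in wild type and 4.92, 3.42 and 2.40 in the knockdown.

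Among the regulators, the ratio of LOC_Os09g27620 to LOC_Os01g18870 was 1.15, 1.28 and 0.884 in wild type and 0.412, 0.794 and 0.662 in the knockdown, without overlap. The ratio of LOC_Os04g39470 to LOC_Os09g27620 was 0.994, 1.15 and 1.03 in wild type and 2.32, 1.23 and 1.23 in the knockdown, also without overlap. The ratio of LOC_Os04g39470 to LOC_Os01g18870 overlapped, at 1.15, 1.46 and 0.908 against 0.956, 0.977 and 0.813. The 3 regulators thus had wild type levels that overlapped one another, and in the knockdown the PHD-finger gene was the lowest of them in every library. Over the 6 pairs compared, two-sided exact permutation tests of the log2 ratio gave p = 0.10 for the 4 pairs without overlap, which is the smallest value the design allows. The same exact permutation test gave p = 0.60 for the protease and PHD-finger genes and p = 0.30 for the MYB and helix-loop-helix genes. None can pass 0.05 with 3 libraries against 3. The 6 pairs share 4 genes, and how often pairs of other listed genes lie apart in this way was not tested.

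**Figure D3:**
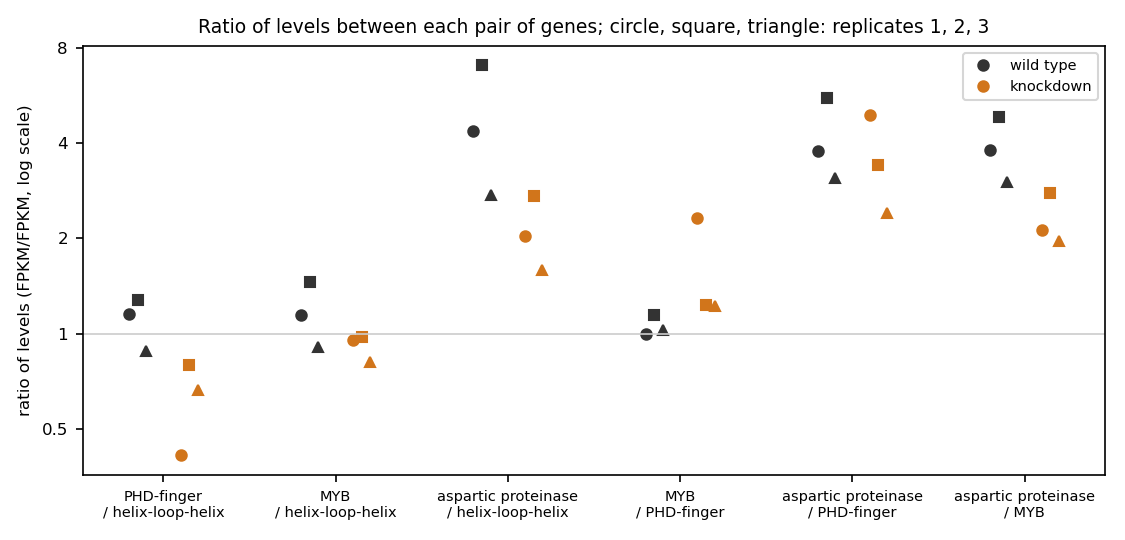
Ratio of levels (FPKM over FPKM, log scale) for each of the 6 pairs of genes, in each wild type (dark) and knockdown (orange) library; circles, squares and triangles are replicates 1, 2 and 3. Wild type and knockdown ratios are apart for 4 pairs and overlap for the MYB over helix-loop-helix and the aspartic proteinase over PHD-finger pairs.

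Tapetal genes of lipid and sporopollenin synthesis and export, which supply the tough polymer of the pollen wall, were taken as a list of 16 locus IDs. Of these, 9 were listed as lower, none as higher and 7 in neither table. All 9 that were listed were thus lower, where 45.1% of all 1174 listed genes were lower. The list was chosen with earlier results of these data known, so this count is no result in itself. The authors' deposited table placed them between -1.58 and -1.01 on the log2 scale, with a median of -1.26, against -1.30 for all genes listed as lower with a wild type mean of at least 1.0 FPKM. The deepest of these falls was in the cytochrome P450 gene LOC_Os08g03682, whose knockdown mean was 33.4% of wild type, and the shallowest in the stilbene synthase gene LOC_Os10g34360, at 49.6%. The others were the cytochrome P450 gene LOC_Os03g07250, the male sterility protein gene LOC_Os03g07140, the strictosidine synthase gene LOC_Os03g15710, the AMP-binding gene LOC_Os04g24530, the ABC transporter gene LOC_Os06g40550, the chalcone and stilbene synthase gene LOC_Os07g22850 and LOC_Os09g32020. The files describe the last as a ubiquitin fusion degradation protein. That description names no lipid enzyme, and whether it is right was not checked here. The summed level of the 9 genes was 1980, 2255 and 2019 FPKM in wild type, against 584, 1287 and 813 FPKM in the knockdown. The highest knockdown library was again replicate 2, in 9 of the 9 genes, and wild type replicate 2 was the highest of wild type in 8 of the 9. Both orders together were seen in the protease gene LOC_Os04g37570 and not in the 3 regulators. They were seen in 87 of the 530 genes listed as lower (16.4%).

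Set against each gene's own wild type mean, the 9 listed genes of that list stood at 20.2% to 34.2% in knockdown replicate 1, 50.6% to 67.5% in replicate 2 and 22.0% to 47.2% in replicate 3. The lower end in replicate 3 was set by LOC_Os09g32020 alone, and the next lowest gene there was LOC_Os07g22850 at 27.2%. The MYB gene LOC_Os04g39470 lay inside these ranges in all 3 libraries, at 32.8%, 58.6% and 30.9%. The PHD-finger gene LOC_Os09g27620 lay below them in replicates 1 and 2, at 14.8% and 49.9%, and in replicate 3, at 26.4%, between LOC_Os09g32020 and the other 8 genes. The protease gene LOC_Os04g37570 lay below them in all 3, at 18.2%, 42.5% and 15.8%. Values for the helix-loop-helix gene LOC_Os01g18870 were 38.3%, 67.0% and 42.4%, above the range in replicate 1 and inside it in the others. These positions are a description, and the differences were not tested.

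**Figure D4:**
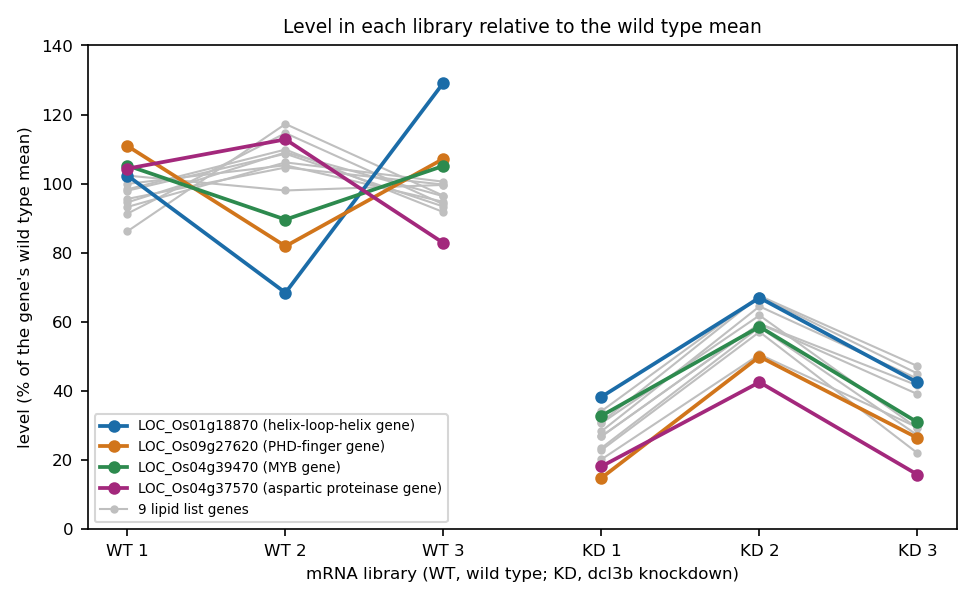
Level in each mRNA library as a percentage of the gene's own wild type mean, for the 4 genes (colours) and the 9 listed genes of the lipid and sporopollenin list (grey), LOC_Os09g32020 included. Knockdown replicate 2 stands above the other knockdown libraries for every gene drawn, and LOC_Os04g37570 lies below the grey range in all 3 knockdown libraries.

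Further regulators and proteases of the tapetum and markers of other anther and floral cells were mostly in neither table. Of 6 further tapetum regulators taken by locus ID, none was listed in either direction, nor were any of 2 further tapetal proteases, of 3 genes of anther cell fate or of 8 floral organ genes, most of them of the MADS class. Of 7 genes of meiocytes, the cells that undergo meiosis inside the anther, 1 was listed as lower. This was LOC_Os04g37960, described as a synaptonemal complex protein, at 0.37, 0.24 and 0.34 FPKM in wild type, against 0.12, 0.19 and 0.10 FPKM in the knockdown (-1.19 on the log2 scale in the authors' deposited table, adjusted p = 0.00561). Levels of the unlisted genes were not analysed here, and no gene table was at hand to check the locus IDs of these lists, so a wrong ID also counts as unlisted. The share of all rice genes that were listed was not analysed either. These absences are therefore not read as a result about the lists. Whether the proportion of anther tissue differed between the genotypes was not tested.

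Relatives of the 4 genes were found by their descriptions in the files. Since 45.1% of all listed genes were lower and every listed gene had been called, the counts below describe the listed relatives and not their families. Aspartic proteinases numbered 3 among the listed genes, and all 3 were lower. LOC_Os09g27940 stood at 13.3, 15.01 and 11.8 FPKM in wild type, against 3.93, 5.97 and 3.27 FPKM in the knockdown (-1.60 on the log2 scale in the authors' deposited table). LOC_Os04g50850 stood at 5.85, 3.17 and 6.56 FPKM against 0.71, 3.08 and 1.02 FPKM (-1.69), so that the replicates numbered 2 nearly met, as they did for LOC_Os01g18870. The 1 listed cysteine proteinase was listed as higher. This gene, LOC_Os09g21370, overlapped between the genotypes, at 60.4, 77.7 and 39.5 FPKM in wild type, against 118, 61.7 and 195 FPKM in the knockdown, with an adjusted p of 0.0149 in the authors' deposited table and 0.0942 by limma.

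All 5 listed MYB genes were lower. LOC_Os03g18480 went from 8.27 ± 2.83 to 2.54 ± 1.49 FPKM (SD, n = 3 each), and LOC_Os04g47890 from 1.84 ± 0.469 to 0.807 ± 0.456 FPKM. The genotypes overlapped in LOC_Os04g47890 and in LOC_Os08g33660, which stood at 16.3, 8.76 and 19.4 FPKM in wild type, against 4.70, 11.8 and 4.27 FPKM in the knockdown, with a limma adjusted p of 0.0640. The other 3 had all knockdown libraries below all wild type libraries, LOC_Os04g39470 among them. This held in 89.1% of the 530 genes listed as lower. Of 4 listed helix-loop-helix genes, 3 were lower and 1 was higher. The higher one, LOC_Os06g30090, stood at 0.11, 0.08 and 0 FPKM in wild type, against 5.02, 3.70 and 4.11 FPKM in the knockdown, where its level was close to that of LOC_Os01g18870. PHD-finger descriptions belonged to 2 listed genes, both lower, and the other, LOC_Os01g06540, held 0.10, 0.11 and 0.22 FPKM in wild type, whereas every knockdown library listed it at 0.

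Listed genes whose pattern over the 6 libraries was most like that of each gene were found among 539 others with a mean of at least 1.0 FPKM. Likeness was the root mean square difference of log2(FPKM + 0.5), after each gene was centred on its own mean. It is a description of genes that the authors had already called, and it shares libraries and depth between all genes. Nearest to the helix-loop-helix gene LOC_Os01g18870 were LOC_Os04g38840, a lipid transfer family protein (0.0603), LOC_Os04g44780, a beta-expansin (0.0888), and LOC_Os08g10010, a chloroplast acyl-desaturase (0.0897). Expansins loosen cell walls, and acyl-desaturases put double bonds into fatty acids. The beta-expansin gene held 6.47, 3.61 and 7.41 FPKM in wild type, against 2.26, 3.81 and 2.11 FPKM in the knockdown, so that knockdown replicate 2 was above wild type replicate 2.

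Nearest to the PHD-finger gene LOC_Os09g27620 were LOC_Os04g37680, an alpha/beta hydrolase (0.102), LOC_Os03g56890, an expressed protein without further description (0.106), and LOC_Os02g38260, a glycosyl hydrolase (0.146). These were far more abundant per transcript length, with wild type means of 62.0 ± 9.04, 158 ± 19.99 and 47.1 ± 6.31 FPKM (SD, n = 3 each). They fell to 34.9%, 31.7% and 32.4% of those means. The MYB gene LOC_Os04g39470 was most like LOC_Os12g05760, of the DnaK chaperone family (0.0936), LOC_Os03g61670, a calreticulin (0.0953), and LOC_Os06g01490, a monocopper oxidase (0.101). DnaK-type chaperones and calreticulin assist protein folding.

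Nearest to the protease gene LOC_Os04g37570 were LOC_Os11g02165 and LOC_Os12g02105, both of the lipid transfer family (0.115 and 0.157), and LOC_Os03g02700, described as a HOTHEAD precursor (0.161). Lipid transfer proteins carry lipids between membranes and to the cell surface. LOC_Os11g02165 stood at 161, 195 and 150 FPKM in wild type, against 36.2, 84.2 and 27.9 FPKM in the knockdown. Replicate 2 was the highest of each genotype, as in the protease gene. The gene was picked for likeness over these same libraries, so the shared order is no result in itself. No label or header states how reads were shared between similar copies of the lipid transfer family. Among the 4 genes, the smallest difference was 0.252, between the MYB and helix-loop-helix genes. The largest was 0.703, between the protease and helix-loop-helix genes. These exceed the differences above, but those belong to the closest of 539 genes, so this order was largely set by how they were picked. Of the 539, 24 were closer to the protease gene than the PHD-finger gene was. At the other end, 277 were closer to the helix-loop-helix gene than the protease gene was.

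**Figure D5:**
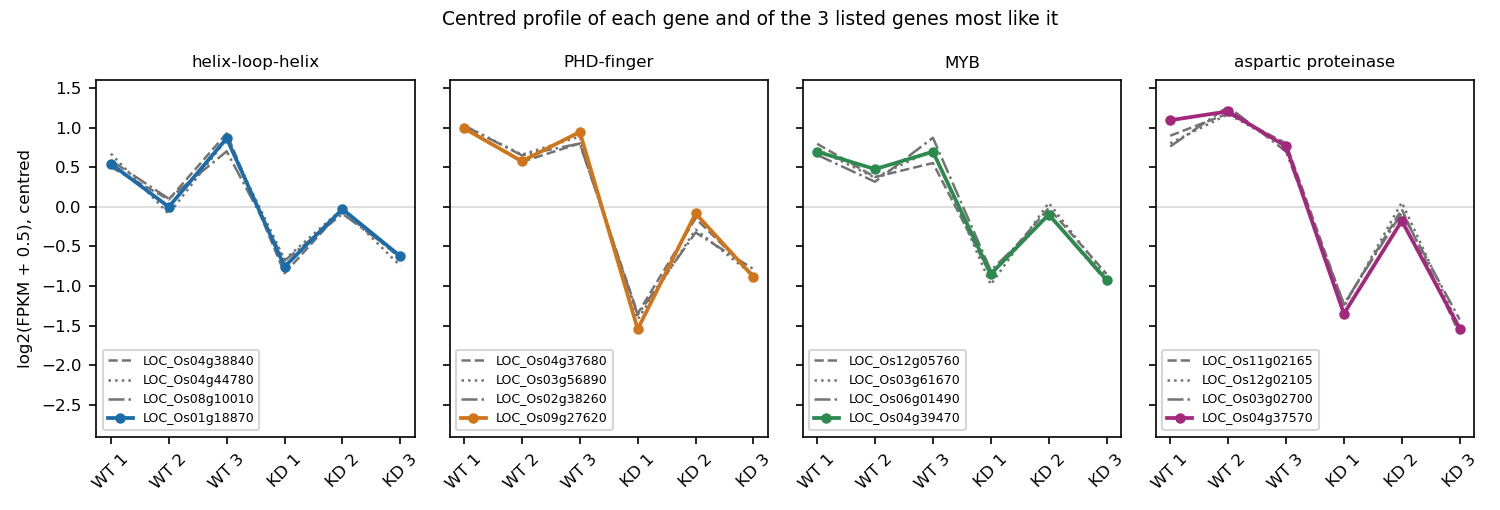
Level as log2(FPKM + 0.5), centred on each gene's mean over the 6 mRNA libraries, for each of the 4 genes (colour) and the 3 listed genes most like it (grey). The protease profile has its top at wild type replicate 2, and the 3 regulators have their lowest wild type value there.

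Small RNA was deposited as 500-base windows called changed between the genotypes, 11 windows for the 21-nt class and 113 for the 24-nt class. None of these windows named any of the 4 genes, and none named a gene of the locus lists above, although 8 and 92 of them named some gene. How many of the other listed genes they named was not counted, so this absence is not read as a result about the 4 genes. Windows that were not called were not analysed here, and with 1 small RNA library of each genotype there was no replicate check.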

How the data were processed

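Trizol-extracted, DNA-free RNA was made into stranded mRNA and small RNA libraries, per the labels' protocols. The tools were Bowtie 1.1.2, TopHat2 2.1.0 and edgeR, per the submitters' processing notes. The genome build, annotation and filters: not given in the sources used here. For genes called changed, the authors deposited FPKM values of each mRNA library, rounded to 2 decimals, with the fold change on a log2 scale and raw and adjusted p-values. No read depth was recovered from the low FPKM values, which the rounding blurs. The small RNA signal (RPTM) of the windows was deposited by the authors and was not used beyond the genes that windows name.

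The members and lists were chosen with earlier results of these data known. None of the locus IDs matched the RefSeq gene table at hand (0 of 1174). The re-test of the listed genes used log2(FPKM + 0.5), a scale that understates changes of low genes, and limma 3.58.1 (R 4.3.3); p-values were adjusted over all of them by the Benjamini-Hochberg method. The script was tested on simulated data. Exact permutation tests used SciPy 1.17.1. Alternatives were pseudocounts of 0.1 and 1, the lowest 25% of genes left out, a replicate block, each library left out, and, chosen after seeing the data, both libraries numbered 2 left out. Genes named were the 4 members, listed genes of the locus lists, up to 2 relatives per description with a mean of at least 1.0 FPKM, and the 3 genes most like each member. The PHD-finger gene LOC_Os01g06540, the MYB gene LOC_Os08g33660, the gene targeted by the knockdown and genes of nearby locus number were named after their values were seen.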

Additional observations from a re-analysis of the deposited data

How the results depend on the processing

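All 4 genes were lower in the knockdown under each of the 11 alternatives of the limma re-test. The setting without both libraries numbered 2 is among them and was chosen after the data were seen. The PHD-finger, MYB and protease genes stayed past an adjusted p of 0.05 under all 11, with adjusted p-values of at most 0.0454, 0.0348 and 0.0293. The helix-loop-helix gene LOC_Os01g18870 did not pass in 5 of its 11. With a replicate block its log2 difference was -0.94 with an adjusted p of 0.0878, against 0.0288 without the block. The block lowered the number of listed genes called from 997 to 630. Same-numbered libraries did not deviate together over the 1174 listed genes (correlations of -0.04, -0.53 and -0.43), so the numbers were not taken to pair the samples. With each library left out in turn, the log2 difference ran from -1.17 to -0.74 for LOC_Os01g18870, which passed in 2 of 6 such fits. The range was -2.05 to -1.32 for LOC_Os09g27620, -1.51 to -1.09 for LOC_Os04g39470 and -2.46 to -1.78 for LOC_Os04g37570. These fits leave 5 libraries, and the number of listed genes called ran from 629 to 1028. Values rest on the authors' normalization, which was not varied, and on mRNA libraries of unknown depth.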

Other observations

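The listed genes nearest in locus number to the helix-loop-helix gene LOC_Os01g18870 moved the other way. LOC_Os01g18860, the adjoining number, is described as an S-adenosylmethionine synthetase, an enzyme that makes the methyl donor of the cell. It stood at 0.50, 0.47 and 0.53 FPKM in wild type, against 13.7, 20.2 and 10.5 FPKM in the knockdown, where its mean was 29.5 times as high. Its change in the authors' deposited table was 4.88 on the log2 scale (adjusted p = 2.8e-70). The retrotransposon gene LOC_Os01g18770 and the gene LOC_Os01g18780, with the description of a fibroin heavy chain precursor, were listed at 0 in every wild type library. In the knockdown they reached 0.82, 1.52 and 0.88 FPKM and 0.64, 1.11 and 0.63 FPKM. Of the knockdown libraries, replicate 2 was the highest for these 3 genes, as it was for LOC_Os01g18870. No listed gene lay within 100 locus numbers of the other 3 genes. Locus numbers are not consecutive, so this span covers far fewer than 100 genes. LOC_Os04g37680, named above as most like the PHD-finger gene, lay just past that distance from the protease gene LOC_Os04g37570. The neighbours of LOC_Os01g18870 were chosen after their values were seen, and distances on the chromosome were not analysed here.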
